A study of Mus musculus with 34 samples.

Results

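The 5 libraries titled TfhA_4e4 were compared with the 6 libraries titled Tfh2_4e4, 11 of the 34 libraries of a study whose title concerns how TGF-β sets follicular helper (TFH) against TH17 fates of mouse CD4 T cells through the transcription factor c-Maf. The members were taken by title alone. In both groups, naive CD4 T cells of C57BL/6 mice were grown for 3.5 days on plate-bound antibodies against CD3 and CD28, stained, sorted into Trizol LS and made into libraries that read the 3′ end of each polyadenylated RNA. The labels call these cultures differentiated, but do not say which cytokines or blocking antibodies the codes Tfh2 and TfhA stand for, what the number 4e4 counts, or what gate the sort used. They do not say either that replicates came from separate mice or cultures, so the p-values here measure the spread between these samples, which may be technical. The TfhA_4e4 replicates carry the numbers 1, 2, 3, 5 and 6.

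TFH cells enter B cell follicles and help B cells through surface ligands and IL-21, TH17 cells make IL-17A and IL-17F, and TH1 cells are directed by T-bet, the product of Tbx21. TGF-β signals through SMAD proteins and, with STAT3-activating cytokines, favours expression of c-Maf and of TH17 genes in activated T cells. c-Maf in turn drives IL-10 and parts of the TFH programme. A T cell that leaves the resting state also rewires its metabolism, cell division, survival and response to interferon, and these programmes are the subject of most of what follows.

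Total counts were 4481509 to 8207111 in TfhA_4e4 and 6548499 to 9934245 in Tfh2_4e4. The 2 most abundant identifiers, which had no symbol in the annotation used, held 44.49 to 50.35% of the counts in TfhA_4e4 and 45.91 to 53.81% in Tfh2_4e4, so 2292557 to 4555364 and 3024987 to 4786843 counts lay on other genes. The mitochondrial rRNAs held 14.82 ± 2.19% of those other counts in TfhA_4e4 and 9.92 ± 0.99% in Tfh2_4e4 (SD, n = 5 and 6, exact two-sided permutation test, p = 0.00433, the smallest this design can give). All 6 CD4 T cell markers (Cd3d, Cd3e, Cd3g, Cd4, Cd28 and Trac) were detected, and their summed level was 1222.2 to 1334.4 CPM (the usual count unit scaled to library size) in TfhA_4e4 and 1615.1 to 1934.4 CPM in Tfh2_4e4. Of the marker lists of other cells, the B cell sum was 5.77 to 15.1 CPM in TfhA_4e4 and at most 2.81 CPM in Tfh2_4e4, with Cd79a, Pax5 and Cd22 at 0 in both groups and Ebf1 the 1 marker of 8 that was abundant enough to test (log2 fold change 3.90 ± 0.58 (SE), adjusted p = 4.56e-07). The myeloid and dendritic sum was at most 4.48 CPM in either group, with Lyz2 and Adgre1 at 0. The sum for NK, CD8 and gamma-delta T cells was 10.6 to 20.9 and 11.1 to 21.4 CPM. The erythroid, mast and stromal sum was 7.43 to 16.5 CPM in TfhA_4e4 and 43.3 to 60.01 CPM in Tfh2_4e4. The 1 testable gene of that list was Pecam1, an adhesion molecule of endothelium and of some leukocytes, which was lower in TfhA_4e4 (9.92 against 47.8 CPM, adjusted p = 8.42e-14). The part of these markers in the results was not tested.

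The library labelled Tfh2_4e4 replicate 3 stood apart from the other 5 of its group. Taking each Tfh2_4e4 library in turn, genes over 8-fold higher in TfhA_4e4 were chosen in a fit without that library, and its CPM was expressed as a percentage of the TfhA_4e4 mean. For replicate 3 the median over 76 such genes was 22.6% (quartiles 16.3 and 28.7%), and it was the highest of the 6 libraries in 70 of them. The other 5 libraries had medians of 3.2 to 4.1%. Above the median of the other libraries, replicate 3 carried an excess of 17.19% of the TfhA_4e4 level (quartiles 11.7 and 23.61%), against -0.67 to 0.32% for the others. Genes over 8-fold lower in TfhA_4e4 were at a median of 83.2% of the other Tfh2_4e4 libraries in replicate 3 (62 genes), and at 93.5 to 107.6% in each of the others. With genes chosen at 4-fold or 16-fold the first median was 27.5 and 21.2%. The cause was not tested, and fold changes that rest on this library are given with and without it.

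**Figure D1:**
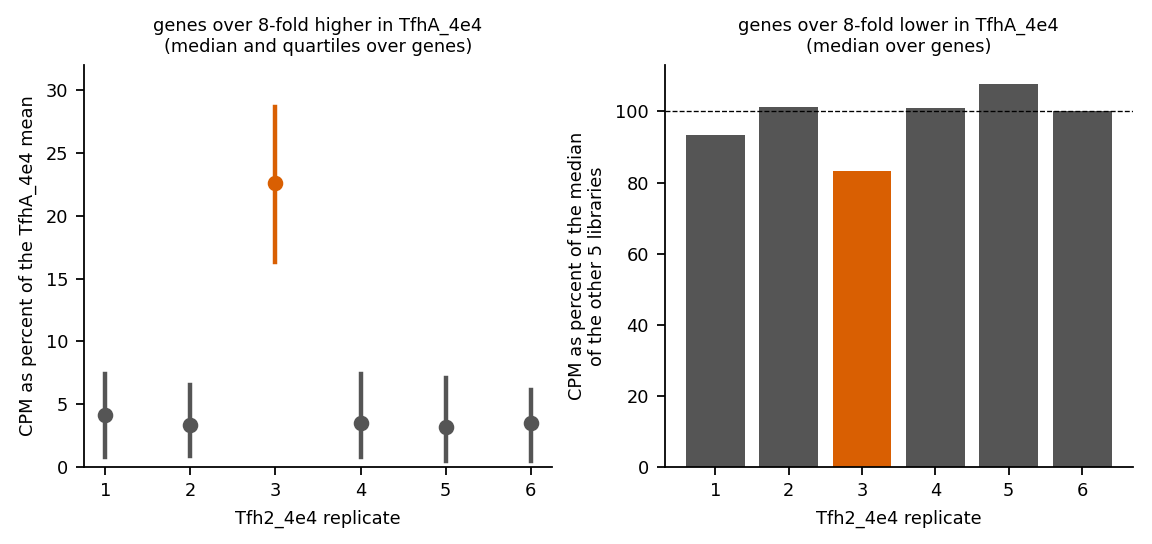
Position of each Tfh2_4e4 library between the groups. Left, CPM as a percentage of the TfhA_4e4 mean over genes more than 8-fold higher in TfhA_4e4 (point, median over genes; line, quartiles), where replicate 3 (orange) stands at 22.6% and the others at 3.2 to 4.1%; right, CPM of genes more than 8-fold lower in TfhA_4e4 as a percentage of the median of the other 5 libraries, where replicate 3 stands at 83.2%.

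Of 11357 genes tested, 3729 (32.8%) differed between TfhA_4e4 and Tfh2_4e4 (edgeR quasi-likelihood F-test, Benjamini-Hochberg adjusted p under 0.05), 1757 higher (15.5%) and 1972 lower (17.4%) in TfhA_4e4. More than 4-fold changes numbered 337 higher and 329 lower, and 61 rose and 114 fell by over 16-fold. The median log2 fold change over all tested genes was -0.009. The counts of gene list members given for each programme stand against these shares of 15.5% higher and 17.4% lower. Called genes with every TfhA_4e4 library above all 23 Tfh2 libraries of the series were 4.76% of those tested, and below them 4.31%. Without Tfh2_4e4 replicate 3 there were 3767 calls among 11339 genes (33.2%). Every TfhA_4e4 library lay outside the range of the Tfh2_4e4 libraries for 2202 genes (19.4%). In the text, a level is in CPM and a difference is a log2 fold change of TfhA_4e4 over Tfh2_4e4, with its SE where given, and a value without a unit in parentheses after a gene is that log2 fold change. Values with ± in CPM are mean and SD over 5 and 6 libraries. In bulk RNA, fewer cells that express a gene and less RNA per cell cannot be told apart.

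**Figure D2:**
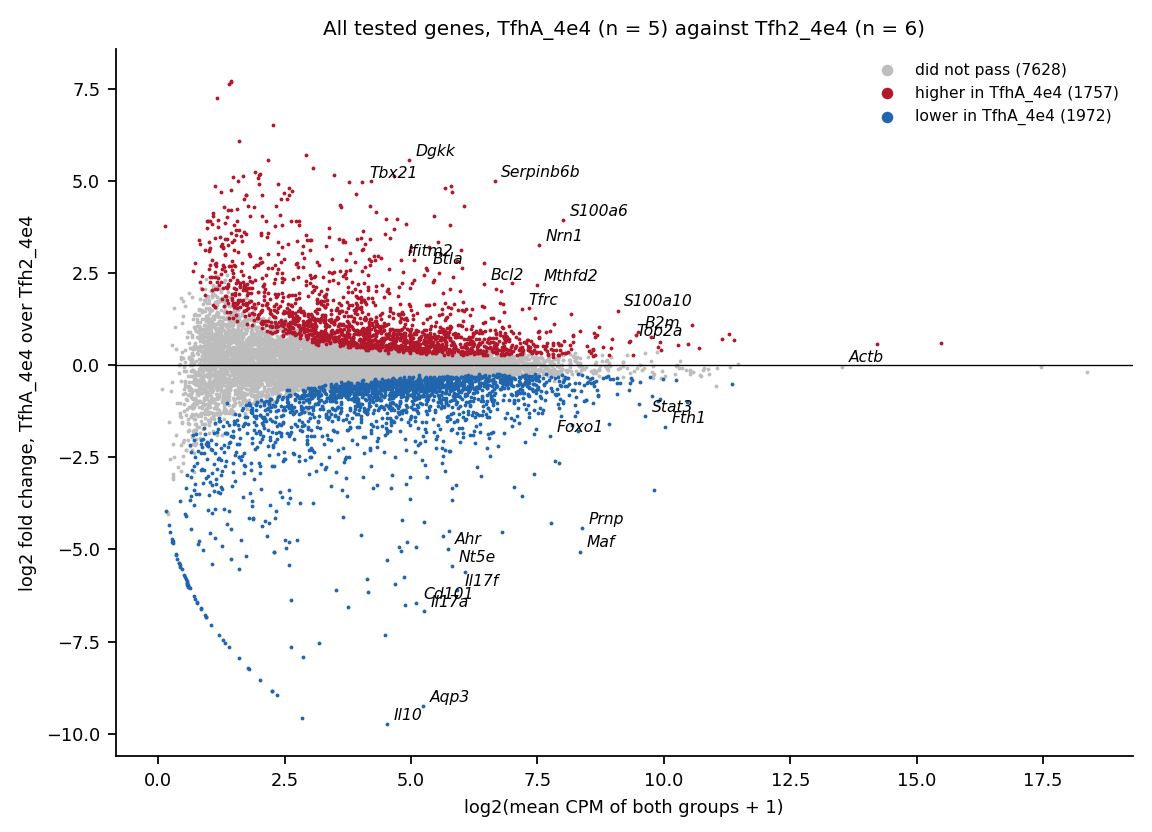
Log2 fold change of TfhA_4e4 over Tfh2_4e4 against the log2 of the mean CPM of both groups plus 1, one point per tested gene. Red, 1757 genes higher in TfhA_4e4; blue, 1972 lower; grey, not past the threshold. Il10 and Aqp3 lie lowest and Actb near 0.

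All 5 lineage genes differed, with Tbx21 higher and Maf, Il17a, Il17f and Il10 lower in TfhA_4e4. Maf, the gene of c-Maf, was at 17.1, 19.9, 15.4, 22.5 and 19.3 CPM in the 5 TfhA_4e4 libraries and at 477 to 775 CPM (median 604) in the 6 Tfh2_4e4 libraries (log2 fold change -5.06 ± 0.14 (SE), adjusted p = 6.93e-31). Il17f was at 0.597, 2.07, 2.32, 1.68 and 1.65 CPM in TfhA_4e4 and 98.2 to 151 CPM (median 115) in Tfh2_4e4 (log2 fold change -6.11 ± 0.20 (SE), adjusted p = 9.88e-28), and Il17a at 0.692 against 73.7 CPM (-6.68). The groups did not overlap for any of the 5. Il10, which encodes an anti-inflammatory cytokine, had 1 count in all TfhA_4e4 libraries, in replicate 6, against 2003 counts in Tfh2_4e4, a 1.26e+03-fold lower level (95% counting interval 225 to 4.97e+04), and at least 356-fold lower without that library. Tbx21 was at 22.1, 37.7, 36, 26.5 and 27.7 CPM in TfhA_4e4 and 0 to 4.22 CPM (median 0.127) in Tfh2_4e4, where the highest value was replicate 3 (log2 fold change 4.97 ± 0.63 (SE), adjusted p = 1.29e-08, and 6.98 without that library).

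Among the largest rises, Serpinb6b and Serpinb9, inhibitors of serine proteases (the second blocks granzyme B), Gzmb itself, Nkg7 of cytotoxic granules and Casp1, the caspase of inflammasomes, rose by over 16-fold. Serpinb6b was at 125, 224, 189, 245 and 185 CPM in TfhA_4e4 and 0.987 to 26.3 CPM (median 1.72) in Tfh2_4e4 (log2 fold change 4.99 ± 0.64 (SE), adjusted p = 2.2e-08, and 6.76 without Tfh2_4e4 replicate 3, or 4.05 with the mitochondrial rRNA share as a covariate). Nkg7 was at 115, 110.5, 125, 97.6 and 85.1 CPM against 0 to 19 CPM (median 1.13) (4.71, and 6.91 without replicate 3). In each of these the highest Tfh2_4e4 value was replicate 3. It was below every TfhA_4e4 value, as the rule for naming the largest rises required. The same held for Gzmb (47.2 against 1.28 CPM, 5.13 with and 6.54 without replicate 3, 4.07 with the covariate), Casp1 (5.17 and 7.29), Serpinb9 (4.31 and 6.27), Penk, the precursor of enkephalins (4.98 and 7.55), and Ccn4, a matricellular protein (4.28 and 6.95).

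The other genes of the top 15 had varied functions. Tnfsf8, which encodes the ligand of CD30, was at 89.7, 87.4, 88, 118 and 101 CPM in TfhA_4e4 and 0 to 18.2 CPM (median 0.274) in Tfh2_4e4 (4.81, and 8.40 without replicate 3, or 3.75 with the covariate). Slc17a6, a vesicular glutamate transporter best known from neurons, was at 110.0, 97.4, 113, 146 and 158 CPM against 0 to 34.7 CPM (median 0.228) (4.32, and 9.24 without replicate 3, or 3.29 with the covariate). For Dgkk, a diacylglycerol kinase, the TfhA_4e4 mean was 59.2 CPM and all 59 counts of Tfh2_4e4 were in replicate 3 (5.55). Without that library Dgkk was at least 707-fold higher, and with all libraries DESeq2 did not call it (adjusted p = 0.278). Mndal, of the interferon-inducible IFI200 family, had a log2 fold change of 4.65 with replicate 3 (3.61 with the covariate) and a ratio of 504 (95% counting interval 139 to 4.17e+03) over 2 counts without it. Il1r2, the decoy receptor of IL-1, had a log2 fold change of 4.97 with and 6.61 without that library, and S100a4, a calcium-binding protein, 4.86 and 6.40. Cth, which makes cysteine from cystathionine, was at 21.2 against 1.03 CPM (log2 fold change 4.33 ± 0.68 (SE), adjusted p = 1.38e-06). In limma-voom, with all libraries, the log2 fold changes of the top 15 were larger, at 5.06 for Cth to 8.53 for Dgkk.

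Of the largest falls beyond the lineage genes, Aqp3, a channel for water and glycerol, had 3 counts in TfhA_4e4, all in replicate 5, against 3301 in Tfh2_4e4, 690-fold lower (95% counting interval 236 to 3.35e+03), and at least 488-fold lower without that library. Cd101, an immunoglobulin-family receptor, was at 0.796, 1.24, 0.166, 0.839 and 0.705 CPM in TfhA_4e4 and 51 to 80.1 CPM (median 64.9) in Tfh2_4e4 (log2 fold change -6.45 ± 0.24 (SE), adjusted p = 4.79e-26). Pdpn, podoplanin, was at 2.98, 1.04, 2.65, 3.12 and 3.06 CPM against 110.2 to 144 CPM (median 131) (log2 fold change -5.62 ± 0.17 (SE), adjusted p = 5.09e-29). The list included homing receptors. Gpr15, which guides T cells to the colon, had 2 counts in TfhA_4e4, both in replicate 3, against 723 (227-fold lower, interval 62.6 to 1.88e+03, and at least 119-fold without that library), and Cxcr6, the receptor of CXCL16, was at 0.807 against 48.3 CPM (-5.93, and -6.67 without TfhA_4e4 replicate 2). Sgk1, a salt-sensing kinase, had a log2 fold change of -6.09 (-6.70 without TfhA_4e4 replicate 3). Peli2, a ubiquitin ligase of innate signalling, had a log2 fold change of -6.55, and without that library 1 count remained in TfhA_4e4, a 552-fold lower level (95% counting interval 98.9 to 2.18e+04). Cysrt1 had -7.33, and 1 count without the same library, 941-fold lower (interval 169 to 3.72e+04). Peg10, an imprinted gene derived from a retrotransposon, was at 0.628 against 56 CPM (-6.50). Serpinb1a, an inhibitor of neutrophil proteases, was at 0.969 against 55.4 CPM (-5.76), so members of the serpin B family changed in both directions. Tmem176a, a membrane protein (-6.15), and Agap1, a regulator of ARF proteins (-5.81), also fell.

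**Figure D3:**
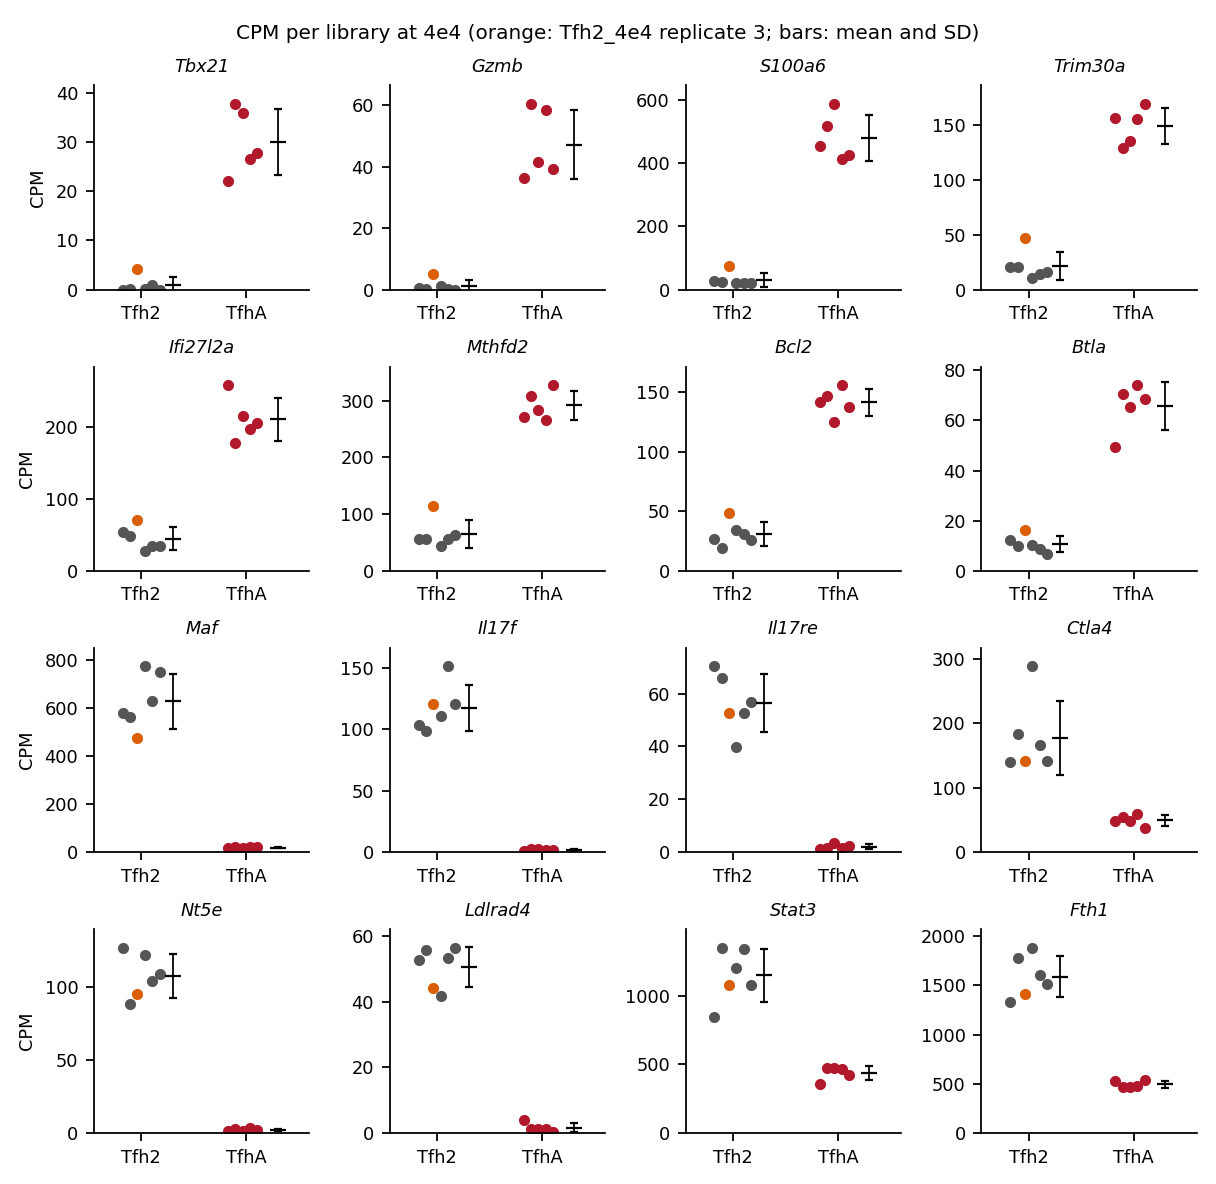
CPM of 16 genes in each Tfh2_4e4 library (left) and each TfhA_4e4 library (right), on linear axes that start at 0; bars give the mean and SD, and orange marks Tfh2_4e4 replicate 3. In the upper 8 panels every TfhA_4e4 library lies above every Tfh2_4e4 library, and replicate 3 is the highest Tfh2_4e4 library; in the lower 8 every TfhA_4e4 library lies below.

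Secreted ligands changed in both directions. Of 27 tested cytokines and TNF-family ligands, 13 rose and 8 fell (median log2 fold change 0.76), against 15.5 and 17.4% of all genes. Lta, lymphotoxin alpha, rose from 17.9 to 94.2 CPM on average (log2 fold change 2.39 ± 0.17 (SE), adjusted p = 3.51e-16). Lgals3, galectin-3, rose (108 against 37.8 CPM, 1.52), as did Spp1, osteopontin (3.95, and 4.88 without replicate 3). Il21, the cytokine by which TFH cells act on B cells, was at 29.2, 37.7, 38.3, 34.4 and 31.7 CPM in TfhA_4e4 and 54.5 to 96.8 CPM (median 74.5) in Tfh2_4e4 (log2 fold change -1.14 ± 0.13 (SE), adjusted p = 5.03e-10). All 5 TfhA_4e4 values of Il21 were lower, while transcripts remained in every library. Furin, the protease that cleaves the TGF-β precursor, fell (24.2 against 237 CPM, -3.30). Mif, the most abundant ligand of the list, did not pass (1326 against 1224 CPM, adjusted p = 0.368). Of 6 tested chemokines, Ccl3 and Ccl5 rose (3.33 and 3.21, and 4.30 and 4.34 without replicate 3, 3.92 and 4.32 with the covariate). Ccl20, the ligand of CCR6, had no count in TfhA_4e4 and 225 in Tfh2_4e4, at least 47.1-fold lower, but it missed the threshold in limma-voom (adjusted p = 0.0931). The median log2 level of the 6 chemokines in each library, relative to the Tfh2_4e4 mean, was 0.83 to 1.84 in TfhA_4e4. It was 1.85 to 3.21 in Tfh2_1e4, 0.94 to 2.49 in Tfh2_2e4 and -1.34 to 0.13 in Tfh2_6e4, so TfhA_4e4 lay within the range of the Tfh2 cultures.

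More cytokine receptors fell than rose, with 20 lower (55.6%) and 9 higher (25%) of 36 tested (median -0.98), against 17.4 and 15.5% of all genes. Il17re, a subunit of the receptor for IL-17C, was at 0.995, 1.45, 3.48, 1.68 and 2.35 CPM in TfhA_4e4 and 39.6 to 70.4 CPM (median 54.9) in Tfh2_4e4 (log2 fold change -4.80 ± 0.25 (SE), adjusted p = 1.78e-20). Il17ra, the shared IL-17 receptor chain, fell too (31.2 against 148 CPM, -2.24). Receptors for survival cytokines were lower, namely Il7r (73.6 against 268 CPM, -1.87, -2.49 with the covariate) and Il2rb (256 against 519.9 CPM, -1.02). Tgfbr2, the ligand-binding TGF-β receptor, was at 6.96, 7.87, 9.45, 6.71 and 6.82 CPM against 17.8 to 38.3 CPM (median 27.6) (log2 fold change -1.85 ± 0.17 (SE), adjusted p = 3.64e-12). The groups did not overlap for any of these 5. Among 33 chemokine and homing receptors, 10 rose and 13 fell (median -0.19). Cxcr4, which holds cells near CXCL12, was at 8.75, 16, 18.2, 12.7 and 18.3 CPM against 30.8 to 96.7 CPM (median 60.9) (log2 fold change -2.05 ± 0.22 (SE), adjusted p = 1.59e-10), and Selplg, the selectin ligand PSGL-1, fell from 258 to 115 CPM. Of 12 integrins, 3 rose and 1 fell. Itga4, the alpha4 chain that binds VCAM-1, was at 20.9, 28.6, 24.4, 29.7 and 34.6 CPM in TfhA_4e4 and 1.95 to 6.8 CPM (median 4.19) in Tfh2_4e4 (log2 fold change 2.66 ± 0.27 (SE), adjusted p = 3.43e-11, and 2.05 with the covariate), and Itga3 rose as well (41 against 16.8 CPM).

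Co-receptors of TFH cells did not move as one group. Of 16 co-inhibitory receptors and ligands, 6 rose and 3 fell (median 0.56). Btla, an inhibitory receptor of TFH cells, was at 49.5, 70.7, 65.5, 74 and 68.4 CPM in TfhA_4e4 and 6.8 to 16.3 CPM (median 10.1) in Tfh2_4e4 (log2 fold change 2.62 ± 0.20 (SE), adjusted p = 9.99e-15), and Cd200, also carried by TFH cells, at 86.7, 103, 129, 108 and 94.3 against 8.23 to 25.7 CPM (median 12.7) (log2 fold change 2.83 ± 0.22 (SE), adjusted p = 9.84e-15). The groups lay apart for both. Ctla4 went the other way, at 47.7, 54.5, 47.6, 58.6 and 36.9 CPM against 139 to 289 CPM (median 154) (log2 fold change -1.84 ± 0.18 (SE), adjusted p = 9.82e-12). Pdcd1, the gene of PD-1, did not pass (44.6 against 33.6 CPM, adjusted p = 0.0727), but passed in 8 of the 23 alternative settings tried. These included the fits without Tfh2_4e4 replicate 3 (log2 fold change 0.52, edgeR adjusted p = 0.0224) or replicate 1 (0.47, 0.0479), upper-quartile scaling (0.46, 0.0391) and the covariate (0.90, 0.00525). Pdcd1lg2, which encodes its ligand PD-L2, rose from 2.1 to 21.7 CPM (3.35). Of 21 costimulatory receptors, 9 rose and 8 fell (median 0.52, and -0.16 with the mitochondrial rRNA share as a covariate). Icos was at 283, 205, 222, 242 and 247 CPM against 57.6 to 116 CPM (median 78.9) (log2 fold change 1.54 ± 0.15 (SE), adjusted p = 3.76e-11). The TNF receptors Tnfrsf4, OX40 (428 against 224 CPM), and Tnfrsf18, GITR (508 against 276 CPM), rose, while Cd27 fell (31.4 against 63.7 CPM). Cd86 had 3 counts in TfhA_4e4, all in replicate 2, against 460 in Tfh2_4e4, 96.2-fold lower (counting interval 32.7 to 468), and at least 79.9-fold without that library. In the SLAM family, whose members support contact of T with B cells, 4 of 8 rose and 1 fell, with Slamf1 at 45.7 against 16.2 CPM (1.49) and Slamf7 at 77.8 against 25.9 CPM (1.59, not called with the covariate).

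Transcription factors fell more often than they rose. Of 76 tested, 36 were lower and 12 higher (median -0.37). Of the 76, 21 were called lower and lay below all 23 Tfh2 libraries of the series, against 4.31% of all tested genes. The higher count was 5 with the mitochondrial rRNA share as a covariate. Foxo1, which keeps naive and follicular T cell genes active, was at 87.5, 98.2, 82.4, 80.4 and 95.7 CPM in TfhA_4e4 and 318 to 379 CPM (median 325) in Tfh2_4e4 (log2 fold change -1.93 ± 0.09 (SE), adjusted p = 6.04e-22). Stat3, the mediator of IL-6 and IL-21 signals, was at 358, 471, 477, 467 and 424 CPM against 845 to 1350.0 CPM (median 1139) (log2 fold change -1.39 ± 0.12 (SE), adjusted p = 9.73e-13). For both, the highest TfhA_4e4 library was below the lowest Tfh2_4e4 library. Ahr, the aryl hydrocarbon receptor, fell from 101 to 3.19 CPM (-4.98). In the Ikaros family Ikzf3, Aiolos, fell (2.73 against 51.9 CPM, -4.19), whereas Ikzf1 was at 161 against 165 CPM and did not pass (adjusted p = 0.814). Ets1 (-1.72), Bach2, a repressor of effector differentiation (-1.38), and Stat5b (-1.41) fell. The interferon regulatory factors Irf4 (182 against 443 CPM, -1.28) and Irf8 (43.4 against 152 CPM, -1.81) also fell.

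Among 30 immediate early and AP-1 genes, 9 rose and 13 fell (median -0.26). Jun fell (41.5 against 109.7 CPM, -1.41) and Batf3, a partner of Jun proteins, rose (71 against 14.1 CPM, 2.31). Of 30 genes of quiescent and naive T cells, 14 fell and 7 rose (median -0.44). Besides Foxo1, the list included Igfbp4, which binds insulin-like growth factors (239.6 against 723 CPM, -1.59), and Ramp1, a subunit of the receptor for the neuropeptide CGRP (12 against 88 CPM, -2.88), which both fell. Of 20 TH17-associated genes, 16 fell and 2 rose (median -3.50). Of the 20, 15 were called lower and lay below all 23 Tfh2 libraries, against 4.31% of all tested genes. Maf, Il17a and Il17f are among the 16 that fell, and so is Tmem176a.

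Of 37 genes of T cell receptor signalling 14 fell (37.8%) and 7 rose (18.9%), against 17.4 and 15.5% of all genes, so the higher share was near that of all genes (median -0.26). The proximal kinase Lck (261 against 287 CPM) and the phosphatase CD45, from Ptprc (645 against 716 CPM), did not pass, but Ptprc was lower with the mitochondrial rRNA share as a covariate (-0.70, adjusted p = 3.32e-05). Tec, a kinase downstream of the receptor, was at 4.18, 3.32, 3.48, 2.64 and 2.82 CPM in TfhA_4e4 and 14.8 to 24.7 CPM (median 20.6) in Tfh2_4e4 (log2 fold change -2.62 ± 0.20 (SE), adjusted p = 2.23e-14). Malt1, a protease of the complex that links the receptor to NF-kB, fell (104 against 257 CPM, -1.30), and so did Ubash3b, a phosphatase that restrains the receptor (-1.24). Outside that list Rasgrp1, which loads RAS with GTP in answer to diacylglycerol, rose (35.3 ± 4.52 against 8.78 ± 3.41 CPM, log2 fold change 2.00 ± 0.21 (SE), adjusted p = 1.14e-10). In the list of 28 NF-kB genes and feedback regulators, 9 rose and 6 fell (3 under upper-quartile scaling and 2 with the covariate). Traf1 (94.1 against 33.5 CPM), Tnfaip8 (134 against 55.5 CPM) and Nfkbia, the inhibitor of NF-kB (524 against 295 CPM), rose. Malt1, which fell, is also a member of this NF-kB list and its called member of lowest p.

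Of 29 regulators of G protein signalling and cyclic nucleotides, 8 fell (27.6%) and 4 rose (13.8%), near the 17.4 and 15.5% of all genes (median -0.13). Rgs10 fell from 209 to 70.3 CPM, Pde4d, which breaks down cAMP, from 122 to 40.6, and Gna13, a G protein subunit that confines lymphocytes, from 454 to 229. Of 19 genes that handle extracellular ATP and adenosine, 8 fell (42.1%) and 4 rose (21.1%). Nt5e, which encodes CD73, the enzyme that makes adenosine from AMP, was at 1.59, 2.69, 1.82, 3.47 and 2.12 CPM in TfhA_4e4 and 88.3 to 127 CPM (median 107) in Tfh2_4e4 (log2 fold change -5.46 ± 0.16 (SE), adjusted p = 1.35e-29). Dpp4, the peptidase CD26, rose (33.7 against 7.42 CPM, 2.18, 1.36 with the covariate), as did the receptor Adora2b (19 against 5.73 CPM, 1.72). The libraries of the 2 groups did not overlap for any of these 3 genes.

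Cytotoxicity genes were split, with 6 higher and 6 lower of 13 tested (3 lower with the covariate). Ctsw, a cathepsin of cytotoxic cells, was at 3.58, 11, 9.61, 7.91 and 8.7 CPM in TfhA_4e4 and 81.1 to 129 CPM (median 99) in Tfh2_4e4 (log2 fold change -3.65 ± 0.17 (SE), adjusted p = 1.87e-22), opposite in direction to Gzmb and Nkg7. Of 21 S100 proteins and annexins, 10 rose and 3 fell (median 0.51). S100a6 was at 454, 517, 588, 415 and 428 CPM against 19.5 to 76 CPM (median 22.8), replicate 3 being the highest (log2 fold change 3.93 ± 0.26 (SE), adjusted p = 1.38e-16). S100a10, the partner of annexin A2, was at 732, 868, 831, 846 and 705 CPM against 233 to 331 CPM (median 290.1) (log2 fold change 1.47 ± 0.09 (SE), adjusted p = 1.1e-17), and Anxa6 rose too (166 against 61.6 CPM). The groups did not overlap for these. Of 54 genes of the actin and migration machinery, 8 rose (14.8%) and 14 fell (25.9%), near the shares of all genes (median -0.11, and 5 and 9 with a median of 0.07 under the covariate). Dock10, an activator of small GTPases, rose (55.1 against 6.35 CPM, 3.10), as did Arhgef3 (51.7 against 11.1 CPM). Capg, an actin-capping protein, and Rhoq fell (193 against 407 CPM and 29.7 against 97.7 CPM, the second at -1.72, or -2.51 with the covariate). Actb did not pass (11586 against 11928 CPM, adjusted p = 0.805).

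Interferon-stimulated genes were higher in TfhA_4e4. Of 61 tested, 38 rose (62.3%) and 5 fell (8.2%), with a median log2 fold change of 0.95, against 15.5 and 17.4% of all genes. Of the 61, 26 lay above all 23 Tfh2 libraries, against 4.76% of all genes. With the mitochondrial rRNA share as a covariate 25 rose, with a median of 0.92. The promoter windows shown next, the 250 bases before the RefSeq start in build GRCm38.p6 read on the gene's strand, belong to 3 of the raised genes. They were chosen among raised genes whose window held the letters in capitals, so a match in each was certain. Oas3 and Gbp7 were chosen after their values were seen, and capitals mark GAAA, 2 bases of any kind and GAAA again, or the reverse complement, the core of the element that interferon-activated STAT and IRF complexes bind.

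Oas3 (chr5:120777660-120777909, minus strand): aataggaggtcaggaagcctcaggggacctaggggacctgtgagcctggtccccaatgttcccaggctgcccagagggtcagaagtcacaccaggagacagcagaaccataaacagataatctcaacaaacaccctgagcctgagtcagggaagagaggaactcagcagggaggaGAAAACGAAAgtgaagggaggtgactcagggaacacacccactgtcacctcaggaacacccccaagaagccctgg
Gbp7 (chr3:142530086-142530335, plus strand): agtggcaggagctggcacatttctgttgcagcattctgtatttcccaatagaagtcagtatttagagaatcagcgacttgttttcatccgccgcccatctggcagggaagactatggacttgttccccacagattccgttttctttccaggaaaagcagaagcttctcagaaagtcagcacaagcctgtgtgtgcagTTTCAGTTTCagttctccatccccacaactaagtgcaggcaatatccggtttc
Ifitm2 (chr7:140955962-140956211, minus strand): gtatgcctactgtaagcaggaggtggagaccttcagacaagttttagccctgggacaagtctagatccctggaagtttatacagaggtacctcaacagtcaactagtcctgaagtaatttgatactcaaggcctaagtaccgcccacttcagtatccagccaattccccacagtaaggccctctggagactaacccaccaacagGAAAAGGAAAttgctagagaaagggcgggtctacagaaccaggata

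These letters on either strand were found in the windows of 27 of 47 interferon-stimulated genes that had a window, in 19 of the 29 that rose and in 3 of the 5 that fell. The windows searched run from 250 bases before to 50 bases after the start. Of all 27025 genes with a window 3.99% held these letters. Among genes with a window, so did 3.72% of those tested, 8.40% of those that rose by over 2-fold and 2.97% of those that fell by over 2-fold. A match is a description of the letters and not evidence of binding. Ifitm2, a membrane protein that blocks virus entry, was at 54.9, 41.7, 45.8, 44.8 and 49.4 CPM in TfhA_4e4 and 3.55 to 10.3 CPM (median 6.33) in Tfh2_4e4 (log2 fold change 2.84 ± 0.23 (SE), adjusted p = 9.86e-14). Oas3, a sensor of double-stranded RNA, had a log2 fold change of 3.39 (4.19 without replicate 3), and Gbp7, a guanylate-binding GTPase, 3.04.

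Ifi27l2a was at 258, 178, 214, 197 and 205 CPM in TfhA_4e4 and 27.1 to 70.1 CPM (median 41.6) in Tfh2_4e4 (log2 fold change 2.23 ± 0.17 (SE), adjusted p = 1.56e-14), and its relative Ifi27 at 109 against 17.4 CPM (2.65). Trim30a, a TRIM protein induced by interferon, was at 157, 129, 136, 156 and 169.5 CPM against 10.7 to 47 CPM (median 18.4), replicate 3 being the highest (log2 fold change 2.78 ± 0.23 (SE), adjusted p = 1.96e-13). Its neighbour Trim30d, named after its value was seen, had a log2 fold change of 3.70 and 4.99 without replicate 3. Phf11b rose from 13.8 to 78.3 CPM. In all 5 of these genes the TfhA_4e4 libraries lay above every Tfh2 library at any number. The Trim30, Ifi27 and Gbp genes have close copies, and counts of such copies are uncertain, because how multiply mapping reads were treated is not given in the sources used here.

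Of 25 genes for MHC class I and peptide loading, 9 rose and none fell (median 0.62; 14 rose under upper-quartile scaling). B2m, the light chain of class I, was at 857, 931, 852, 1008 and 1019 CPM in TfhA_4e4 and 417 to 579 CPM (median 506) in Tfh2_4e4 (log2 fold change 0.89 ± 0.10 (SE), adjusted p = 2.38e-10). Nlrc5, the transactivator of class I genes, rose (19.6 against 3.7 CPM, 2.41), as did H2-D1 (72.2 against 40.2 CPM, 0.85) and the immunoproteasome subunit Psmb8 (148 against 84.8 CPM, 0.80). H2-K1 was at 336 against 289 CPM and did not pass (adjusted p = 0.0591), but passed in 9 of the 23 alternative settings (adjusted p = 0.0143 to 0.0497). These included RLE scaling (0.0312), upper-quartile scaling (0.0143), DESeq2 (0.0149), limma-voom (0.037), the stricter filter (0.0268) and the fits without Tfh2_4e4 replicate 2 or 4 (0.0497 and 0.0493), at log2 fold changes of 0.21 to 0.27. The heavy chain genes resemble each other, so their counts share this uncertainty.

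Genes of cell division were higher in TfhA_4e4. Of 58 genes of mitosis 42 rose (72.4%) and none fell (median 0.72), and of 58 genes of DNA replication and nucleotide synthesis 37 rose and 1 fell (median 0.70). With the mitochondrial rRNA share as a covariate 27 mitosis genes rose and 1 fell. The called members had a median log2 change of 0.79 in mitosis and 1.0 in replication. Lig1, the ligase that joins Okazaki fragments, was at 322, 285, 356, 284 and 313 CPM in TfhA_4e4 and 96.4 to 175 CPM (median 151) in Tfh2_4e4 (log2 fold change 1.12 ± 0.13 (SE), adjusted p = 1.84e-09). Top2a, the topoisomerase of dividing cells, was at 759, 701, 748, 823 and 917 CPM against 399 to 601 CPM (median 518) (log2 fold change 0.67 ± 0.10 (SE), adjusted p = 1.94e-07). Rfc3, of the clamp loader (80.6 against 27.4 CPM, 1.55), the histone chaperone subunit Chaf1a (1.26) and Uhrf1, which maintains DNA methylation (1.0), rose as well. Among mitosis genes, Spc24 of the kinetochore (45.1 against 19 CPM), Cdca8 of the chromosomal passenger complex (108 against 55.7 CPM) and the motor Kif15 (84.1 against 39.8 CPM, 1.08, not called with the covariate) rose. Mki67 did not pass (156 against 133 CPM, adjusted p = 0.22). The windows of Rfc3 and Kif15 are shown with the letters that textbook descriptions tie to the cell cycle, TTTCGCGC for E2F in Rfc3 and TTTGAA or its reverse complement, the CHR element, in Kif15. These windows, too, were chosen among those that held the letters.

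Rfc3 (chr5:151651209-151651458, minus strand): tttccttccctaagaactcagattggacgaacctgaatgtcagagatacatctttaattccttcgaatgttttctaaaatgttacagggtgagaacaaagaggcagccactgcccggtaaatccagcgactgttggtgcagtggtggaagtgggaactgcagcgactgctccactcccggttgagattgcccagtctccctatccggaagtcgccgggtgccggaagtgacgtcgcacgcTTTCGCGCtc
Kif15 (chr9:122950831-122951080, plus strand): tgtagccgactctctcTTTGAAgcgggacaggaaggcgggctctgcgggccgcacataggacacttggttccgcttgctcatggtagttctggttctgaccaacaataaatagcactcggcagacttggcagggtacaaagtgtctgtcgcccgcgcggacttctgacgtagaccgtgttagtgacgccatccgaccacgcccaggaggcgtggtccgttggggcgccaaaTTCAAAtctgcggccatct

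One of TTTCCCGC, TTTGGCGC or TTTCGCGC on either strand was in the windows of 18 of 48 replication genes. Among genes with a window, the share was 2.12% of all and 4.48% of those tested. TTTGAA was in the windows of 37 of 49 mitosis genes, against 20.2% of all genes with a window and 14.1% of those tested. Of the 36 mitosis members that rose and had a window, 26 held it. The list median within each library, set against the Tfh2_4e4 mean, was 0.58 to 0.77 in TfhA_4e4 for mitosis, inside the span from Tfh2_2e4 (0.54 to 0.82) to Tfh2_1e4 (0.93 to 1.12). At the other end Tfh2_6e4 had -0.41 to -0.20. So the levels of these genes in TfhA_4e4 were within the range that Tfh2 cultures covered at other numbers. Of the raised genes, 1 of 42 in mitosis and 3 of 37 in replication lay above all 23 Tfh2 libraries. Over all calls, 27.6% lay outside that range.

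G1 regulators rose in 8 and fell in 3 of 29 genes (5 and 5 with the covariate). Ccnd2, cyclin D2, was at 1475 against 1019 CPM (0.53) and Ccnd3 at 14.3 against 5.05 CPM (1.5). Cdkn1b, the inhibitor p27, fell from 103 to 54.1 CPM (log2 fold change -0.93 ± 0.11 (SE), adjusted p = 9.74e-10). Among 36 genes for DNA methylation and chromatin writers, 15 rose (9 with the covariate) and 5 fell (median 0.10). Dnmt3a, a DNA methyltransferase, was at 105, 99.9, 87.2, 90.3 and 114 CPM in TfhA_4e4 and 27.3 to 41.5 CPM (median 34.4) in Tfh2_4e4 (log2 fold change 1.53 ± 0.12 (SE), adjusted p = 1.58e-14). Ezh2, which writes the repressive mark H3K27me3, rose (281 against 146 CPM, 0.94), and Kdm6b, which removes it, fell (2.37 against 15.7 CPM, -2.77, -1.94 with the covariate). For all 3 of these the TfhA_4e4 libraries lay outside every Tfh2 library of the series.

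Targets of p53 were raised in 15 and lowered in 4 of 26 tested (median 0.72, and 9 raised with the covariate). Of the 26, 8 lay above all Tfh2 libraries, against 4.76% of all genes. Ccng1 was at 129, 121, 124, 167 and 150.0 CPM in TfhA_4e4 and 45.3 to 63.8 CPM (median 60.1) in Tfh2_4e4 (log2 fold change 1.28 ± 0.12 (SE), adjusted p = 5.16e-12). Phlda3, which holds back AKT (24.3 against 3.46 CPM, 2.79), Perp (27.5 against 6.22 CPM, 2.13) and Zmat3 (46.1 against 17.9 CPM, 1.36) rose, and Trp53inp1 fell (62.3 against 133 CPM, -1.09, -1.70 with the covariate). Trp53 itself did not pass (20.8 against 19.2 CPM, adjusted p = 0.711). In the BCL2 family and other death genes, 13 of 28 rose and 6 fell (median 0.38). The antiapoptotic Bcl2 was at 142, 147, 125, 156 and 138 CPM against 19 to 48.5 CPM (median 28.9) (log2 fold change 2.19 ± 0.18 (SE), adjusted p = 4.7e-14), and Bcl2l1, which encodes BCL-XL, at 98.9 against 47.1 CPM (1.07). The inflammatory caspase Casp4 rose too (34.2 against 4.28 CPM, 2.97).

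Genes of amino acid supply under ATF4, the transcription factor of the integrated stress response, were higher in TfhA_4e4. In the list of 32 genes of ATF4, serine and one-carbon metabolism, 21 rose and 6 fell (median 1.06). Of the 32, 13 lay above all Tfh2 libraries, against 4.76% of all genes. Cytosolic tRNA synthetases rose in 12 of 20 and fell in none (median 0.50), whereas 1 of 17 mitochondrial ones rose. The windows of Chac1, which degrades glutathione and was named after its value was seen, and of Aars, the alanyl-tRNA synthetase, are shown with TGATGCAA or its reverse complement in capitals, the core of the element at which ATF4 binds with C/EBP partners. Both were again chosen among windows of raised genes that held these letters.

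Chac1 (chr2:119350992-119351241, plus strand): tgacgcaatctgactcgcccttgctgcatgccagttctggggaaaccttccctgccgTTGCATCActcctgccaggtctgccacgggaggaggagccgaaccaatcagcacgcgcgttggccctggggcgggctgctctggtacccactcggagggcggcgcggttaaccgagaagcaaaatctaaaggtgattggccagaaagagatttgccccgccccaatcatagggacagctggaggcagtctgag
Aars (chr8:111033592-111033841, plus strand): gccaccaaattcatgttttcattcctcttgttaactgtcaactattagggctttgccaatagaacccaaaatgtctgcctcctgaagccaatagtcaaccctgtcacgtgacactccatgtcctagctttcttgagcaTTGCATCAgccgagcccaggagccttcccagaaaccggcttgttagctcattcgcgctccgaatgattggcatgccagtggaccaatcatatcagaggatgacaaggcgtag

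TGATGCAA on either strand was in the windows of 5 of 29 members of the first list and 4 of 13 synthetases. Among genes with a window, the share was 1.03% of all and 0.746% of those tested. In the first list 3 of the 19 genes that rose and 2 of the 5 that fell held it, and in the synthetases all 4 were among the 8 that rose. Mthfd2, the mitochondrial folate enzyme, was at 271, 309, 283, 267 and 327 CPM in TfhA_4e4 and 43.2 to 114 CPM (median 56.5) in Tfh2_4e4, replicate 3 being the highest (log2 fold change 2.17 ± 0.14 (SE), adjusted p = 7.18e-17). The serine enzymes Psat1 (165 against 51.5 CPM, 1.68) and Shmt2 (89.1 against 38.8 CPM, 1.20) rose. Asns, asparagine synthetase, was at 45.2, 28.8, 40.8, 40.1 and 41.1 CPM against 3.11 to 10.8 CPM (median 5.86) (log2 fold change 2.60 ± 0.24 (SE), adjusted p = 3.46e-12). Pck2, the mitochondrial PEP carboxykinase (2.26), Atf3, a stress-induced transcription factor (2.90), Chac1 (3.81, and 5.06 without replicate 3) and the serine transporter Slc1a4 (12.6 against 2.87 CPM, 2.12) rose as well. Among synthetases, Cars was at 60.1 against 19.5 CPM, Nars at 166 against 91.1 CPM, Gars at 139.6 against 74.4 CPM and Aars at 73.2 against 29.7 CPM. Amino acid transporters, Slc1a4 included, were split as a list, with 6 higher and 7 lower of 22, the neutral amino acid carrier Slc43a2 falling by over 2-fold (15.3 against 44.2 CPM). Slc25a15, the mitochondrial ornithine carrier, fell too (9.88 against 34 CPM).

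Glycolysis and the hypoxia response were lower. Of 23 glycolysis genes 12 fell (52.2%) and 1 rose (4.35%, median -0.39), and of 34 hypoxia genes outside glycolysis 18 fell (52.9%) and none rose (median -0.55), against 17.4% lower and 15.5% higher of all genes. Slc2a3, the glucose transporter GLUT3, was at 107, 119, 106, 141 and 109 CPM in TfhA_4e4 and 198 to 333 CPM (median 279) in Tfh2_4e4 (log2 fold change -1.21 ± 0.14 (SE), adjusted p = 3.12e-09). Aldoc (103 against 239 CPM, -1.21) and Pfkfb3, which makes the activator of phosphofructokinase (24 against 55.8 CPM, -1.23), fell. Pkm (1088 against 1286 CPM, adjusted p = 0.0556) and Ldha (791 against 972 CPM, adjusted p = 0.0607) were the most abundant members that did not pass. Pkm passed in 7 and Ldha in 9 of the 23 alternative settings, in limma-voom among them (adjusted p = 0.0362 and 0.0476). Pkm passed without TfhA_4e4 replicate 3 (adjusted p = 0.0147) or without Tfh2_4e4 replicate 1, 4 or 6 (0.0492, 0.0461 and 0.0251). Ldha passed without TfhA_4e4 replicate 2 or 3 (0.0414 and 0.0367) or without Tfh2_4e4 replicate 3 or 5 (0.0494 and 0.0332). Of the hypoxia genes, the collagen hydroxylases P4ha1 (34.9 against 93 CPM, -1.41) and Plod2 (28.1 against 99.8 CPM, -1.83) and Ddit4, an inhibitor of mTORC1 (624.7 against 1111 CPM, -0.83), fell. The list median of glycolysis per library was -0.62 to -0.26 in TfhA_4e4, within the span from Tfh2_2e4 (-0.70 to -0.33) to Tfh2_4e4 (-0.07 to 0.13), and far from Tfh2_1e4 (-1.33 to -1.02). None of the 12 lowered glycolysis genes, and 2 of the 18 hypoxia genes, lay below all 23 Tfh2 libraries. Over all calls, 27.6% lay outside the range of those libraries. ACGTGC, the core letters at which hypoxia-inducible factors bind, was in the windows of 13 of 28 hypoxia genes and 8 of 22 glycolysis genes. Among genes with a window, the share was 6.68% of all, 9.85% of those tested and 11.7% of those lowered by over 2-fold. Of the lowered members with a window, 8 of 13 hypoxia genes and 3 of 11 glycolysis genes held it.

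Mitochondrial transcripts rose in 8 of 10 tested and fell in none (median 0.59), and the 2 mitochondrial rRNAs are among the 8. With the mitochondrial rRNA share as a covariate 0 rose and 2 fell (median -0.24). That covariate is made from the same 2 rRNAs, so it takes out differences that follow them. The fit with it therefore cannot decide whether this list differed. COX1 was at 1581, 1574, 1466, 1984 and 1855 CPM in TfhA_4e4 and 951 to 1326 CPM (median 1169.5) in Tfh2_4e4 (0.56) and ND1 at 3284 against 2046 CPM (0.68), neither of which was called with that covariate. Respiratory chain subunits encoded in the nucleus rose in 20 and fell in 3 of 76 (median 0.21), or 32 and 1 with the covariate (median 0.45). They included Ndufa4 (32.3 against 16.6 CPM, 0.95) and Cox6b2, a variant of a cytochrome oxidase subunit known from testis (22.2 against 3.69 CPM, 2.58). Me2, the mitochondrial malic enzyme, fell from 126 to 36.1 CPM (log2 fold change -1.80 ± 0.12 (SE), adjusted p = 9.24e-17).

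Of the machinery of protein synthesis, cytosolic ribosomal proteins were called in 4 of 83 higher and 5 lower, ribosome biogenesis genes in 7 and 5 of 59 (11 and 2 under upper-quartile scaling, 5 and 9 with the covariate), translation factors in 2 and 2 of 38 (5 lower without Tfh2_4e4 replicate 3, and 3 and 7 with the covariate) and proteasome subunits in 6 and 2 of 37. The endoplasmic reticulum chaperones and unfolded protein response genes were called in 3 and 4 of 32. In the fit of all libraries without the covariate, these shares lie close to or under the 15.5 and 17.4% of all genes, and the difference from the synthetases was not tested.

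Cholesterol synthesis and uptake genes rose in 10 and fell in 3 of 31 (median 0.11). Hmgcs1 (236 against 126 CPM) and Msmo1 (73.9 against 42.4 CPM), enzymes of the synthesis, rose, each by under 2-fold, and Npc2, which moves cholesterol out of lysosomes, was at 939, 866, 847, 841 and 949.8 CPM in TfhA_4e4 and 432 to 545 CPM (median 507) in Tfh2_4e4 (log2 fold change 0.83 ± 0.09 (SE), adjusted p = 1.07e-10). Dgat1, which stores fatty acids as triglyceride, fell (92.8 against 229 CPM, -1.30). Iron and haem genes were called at near the share of all genes, with 3 higher and 3 lower of 16 tested (18.8% each). Fth1, the ferritin heavy chain that stores iron, was at 526, 467, 464, 479 and 539 CPM against 1331 to 1882 CPM (median 1559) (log2 fold change -1.68 ± 0.11 (SE), adjusted p = 1.39e-17), while Tfrc, the transferrin receptor that imports it, was at 221, 207, 211, 245 and 189 against 56.2 to 97.4 CPM (median 72.2) (log2 fold change 1.51 ± 0.12 (SE), adjusted p = 4.83e-14). The groups lay apart in both genes. Cpox, of haem synthesis, fell (20 against 137 CPM, -2.76).

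Of 27 NRF2 and redox genes, 10 fell and 3 rose (median -0.10). Gpx1 (173 against 336 CPM) and Prdx6 (68.4 against 191 CPM), which reduce peroxides, and the metallothioneins Mt1 (638 against 1247 CPM) and Mt2 (472 against 982 CPM) fell. Prdx2 rose (499 against 293 CPM, 0.77). Mt1 at other numbers ranged more widely within Tfh2, from a mean of 163 CPM in Tfh2_1e4 to 1585 in Tfh2_6e4. Lysosome and autophagy genes fell in 14 (7 with the covariate) and rose in 3 of 40, among them Ctsc, the protease that activates granzymes, at 16.8 against 44.9 CPM (-1.41).

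Genes that answer TGF-β and activin were lower. Of 17 tested, 10 fell and 1 rose (median -0.90). Of the 17, 8 lay below all 23 Tfh2 libraries, against 4.31% of all genes. Ldlrad4, an inhibitor of SMAD activation that TGF-β induces, was at 3.98, 1.24, 1.33, 1.2 and 0.47 CPM in TfhA_4e4 and 41.7 to 56.5 CPM (median 52.9) in Tfh2_4e4 (log2 fold change -4.95 ± 0.22 (SE), adjusted p = 3.75e-23). Skil, a SMAD corepressor, was at 17.5, 13.1, 13.8, 11.6 and 9.17 CPM against 69.3 to 101 CPM (median 79.8) (log2 fold change -2.67 ± 0.15 (SE), adjusted p = 4.55e-19), and the feedback inhibitors Smad7 (12.6 against 35.5 CPM, -1.5) and Pmepa1 (109.8 against 272 CPM, -1.31) fell as well. The groups did not overlap for these 4 genes. Of 18 AHR, retinoid and vitamin D response genes, 9 fell and 3 rose (median -1.03). Rara, a retinoic acid receptor, fell (9.0 against 33.8 CPM, -1.91), as did Tiparp, a target of AHR (41 against 148 CPM, -1.85). In the Notch and Wnt list 6 of 17 fell and 1 rose (median -0.43). Rbpj, the DNA-binding partner of Notch, fell (133 against 239.9 CPM, -0.85), and so did its target Hey1, with 6 counts in TfhA_4e4, all in replicate 2 (-5.41, and at least 76.8-fold lower without that library).

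**Figure D4:**
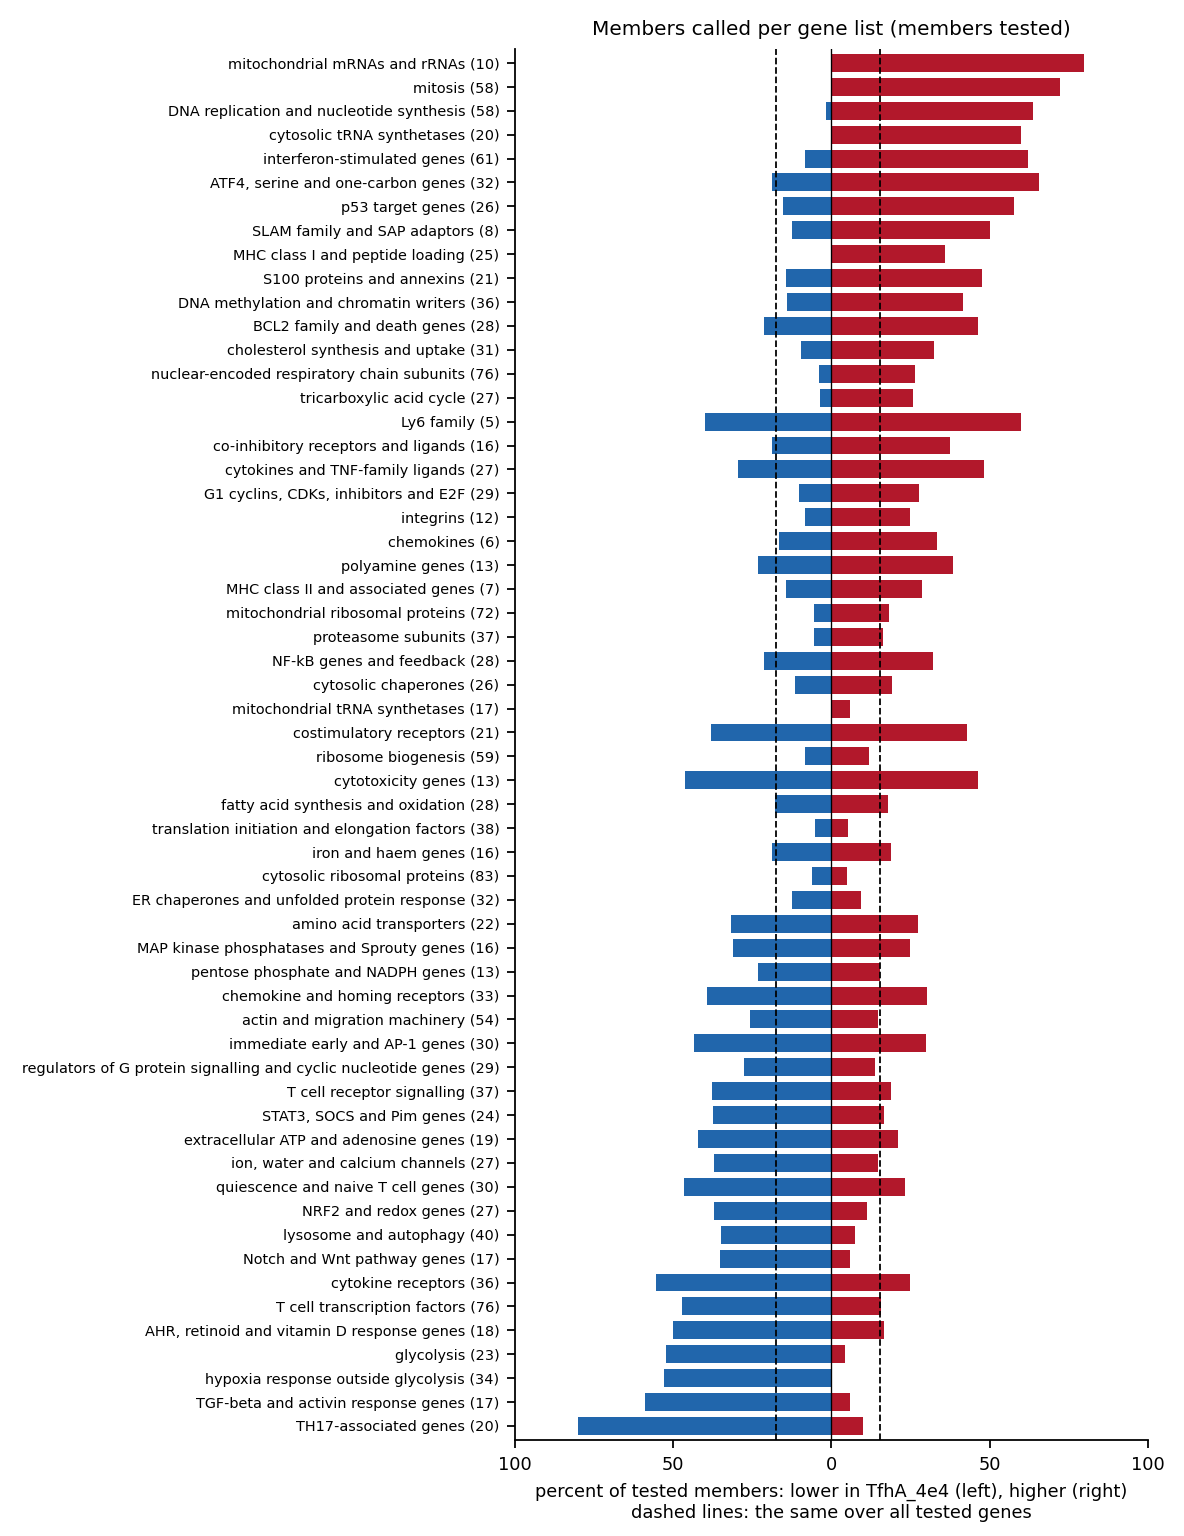
Share of tested members of each gene list that were higher (red, to the right) or lower (blue, to the left) in TfhA_4e4 at adjusted p under 0.05, for lists with at least 5 tested members, ordered by the difference of the shares. Dashed lines mark the same shares over all 11357 tested genes, 15.5 and 17.4%; mitosis (42 of 58) lies near the top and TH17-associated genes (16 of 20 lower) at the bottom.

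The series holds Tfh2 cultures at 4 numbers, which allows each difference to be set against the range that Tfh2 cultures cover. In all, 541 genes (4.76%) were higher and 490 (4.31%) lower in every TfhA_4e4 library than in all 23 Tfh2 libraries, together 1031 (9.08%), or 27.6% of the calls. The share was 12.8% among 2130 calls of up to 2-fold, 37.6% among 933 of 2-fold to 4-fold and 61.1% among 666 beyond. These comparisons share the Tfh2_4e4 libraries. Per library, the median of the interferon-stimulated genes relative to the Tfh2_4e4 mean was 1.08 to 1.28 in TfhA_4e4 and at most 0.36 in any Tfh2 library, the highest being Tfh2_4e4 replicate 3. ATF4 genes stood at 1.18 to 1.39 against at most 0.51, synthetases at 0.43 to 0.63 against at most 0.29, and p53 targets at 0.63 to 1.03 against at most 0.36. The TGF-β response genes stood at -1.32 to -0.61 in TfhA_4e4 and at -0.13 or above in every Tfh2 library, and TH17-associated genes at -3.40 to -2.91 against -0.20 or above. Mitosis, DNA replication, glycolysis and hypoxia genes lay within the Tfh2 range. Replication genes were at 0.66 to 0.82, overlapping both Tfh2_2e4 (0.44 to 0.69) and Tfh2_1e4 (0.80 to 0.89), and hypoxia genes at -0.64 to -0.46, against -0.73 to -0.45 in Tfh2_2e4.

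**Figure D5:**
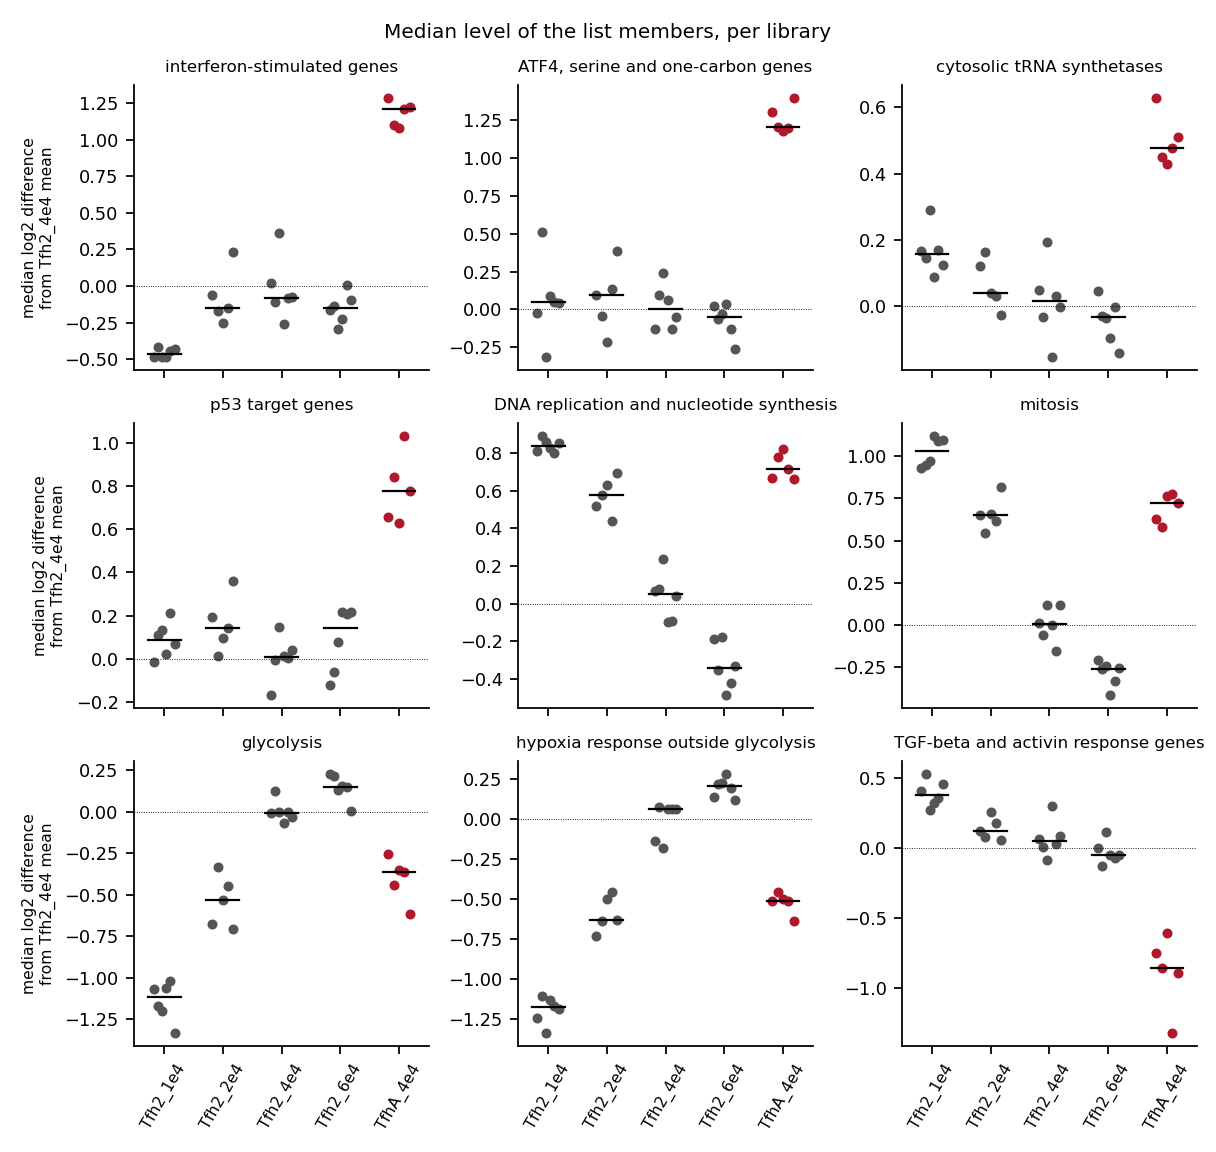
Median log2 level of the members of 9 gene lists in each library, relative to the mean of Tfh2_4e4 (points, libraries; bars, group medians), for Tfh2 at 4 numbers (grey) and TfhA_4e4 (red). For interferon-stimulated genes, ATF4 genes, tRNA synthetases, p53 targets and TGF-β response genes the TfhA_4e4 libraries lie outside all Tfh2 libraries; for replication, mitosis, glycolysis and hypoxia they lie within the range of the Tfh2 libraries.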

How the data were processed

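RNA of sorted CD4 T cells was read from its 3′ end with a Lexogen kit, per the labels' protocols. The authors deposited raw counts per gene identifier, 1 table per library, and the values are whole. Per the submitters' processing notes the tools included STAR (2.7.2b) and featureCounts (1.6.4), with mm10 as the build, and no roles are stated. Neither the strand setting nor the treatment of multiply mapping reads is given in the sources used here, so counts of antisense, overlapping and near-identical genes carry that uncertainty. Symbols were matched by identifier to RefSeq GRCm38.p6 for 25275 of 27179 identifiers.

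Groups came from the titles. All 34 libraries in 6 groups were fitted with edgeR 4.0.16 in R 4.3.3 (TMM normalization, filterByExpr by group, quasi-likelihood F-test of TfhA_4e4 minus Tfh2_4e4, no replicate block, Benjamini-Hochberg adjustment over 11357 genes, threshold 0.05). The procedure was also run on simulated counts, in which far fewer genes changed than were called here and no library stood apart. That run does not show how the fit behaves with these features of the data. CPM use TMM library sizes that include the 2 identifiers without a symbol. The library depth, given with the results, sets the precision of low counts: where a group held 0 counts a floor of 3 counts over the group was used, and with 1 to 3 counts an exact 95% interval, both of which cover counting error only.

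The genes, lists and comparisons were chosen with earlier results of these data known. The genes named are the 5 lineage markers, then by fold change the top 15 in each direction (called, at least 16 CPM in the higher group, groups apart, no predicted genes) and, per list, up to 5 called members of lowest p with at least 4 CPM in the higher group and up to 2 of the highest level that did not pass. Some genes that this rule names are not reported here. Alternatives were RLE and upper-quartile scaling, DESeq2 1.42.0, limma-voom (limma 3.58.1), no and stricter filters (at least 5 CPM in at least 5 libraries), only the 11 libraries, replicate number as a block, the replicate number range, removal of the 2 identifiers, the mitochondrial rRNA share as a covariate, and each library left out. Leaving out Tfh2_4e4 replicate 3 together with Tfh2_2e4 replicate 6 was added after seeing the data. Promoter windows came from the RefSeq table of the same build, and those printed were chosen among raised list members with the letters before the start. Members were taken from the largest rise down, above a minimum level in CPM, and windows on 1 chromosome were passed over. The other groups entered only through the fit and, for Tfh2, the range.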

Additional observations from a re-analysis of the deposited data

Results flagged for a closer look

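For the 186 named genes, the values of each group were checked for a single library far from the rest of its own group, 372 groups of values in all. A library was singled out where its gap to the nearest other library exceeded 0.71 of the range among 5 libraries, or 0.625 among 6 (Dixon's 95% limits). This was met 53 times. Chance flags about 1 in 20 groups of normally distributed values. A group whose few counts all lie in 1 library is always flagged, so that rate does not hold there. The genes also share their libraries and are not independent.

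Tfh2_4e4 replicate 3 was the outlying highest library of its group for 29 genes, each of them higher in TfhA_4e4. Its CPM, with the nearest other Tfh2_4e4 library in parentheses, was, for the lineage gene and the largest rises, Dgkk 6.92 (0), Casp1 2.46 (0.346), Gzmb 5.16 (1.32), Serpinb6b 26.3 (3.04), Penk 5.16 (0.692), Tbx21 4.22 (0.967), Il1r2 3.28 (0.658), S100a4 14.8 (2.52), Tnfsf8 18.2 (0.806), Nkg7 19 (1.9), Mndal 5.75 (0.173), Slc17a6 34.7 (0.488), Serpinb9 7.39 (1.04) and Ccn4 5.51 (0.439). For the other programmes it was Lta 30.02 (17.2), Spp1 9.97 (2.25), Ccl3 2.46 (0.878), Tnfrsf4 304 (226), Ifi27 35.8 (17.6), Trim30a 47 (21.1), Trim30d 13 (2.9), Oas3 6.1 (1.93), S100a6 76 (27.3), Mthfd2 114 (63.4), Chac1 2.93 (0.66), Hmgcs1 162 (122), Rfc3 39.4 (28.4), Perp 10.1 (6.47) and Bcl2l1 78.2 (51.2). The same library was the outlying lowest for Hey1, which is lower in TfhA_4e4, at 4.81 (10.2) CPM.

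Of the other Tfh2_4e4 libraries, the outlying highest values in CPM were Tmem176a 43.2 in replicate 1 (nearest 34.4), Il17ra 225 in replicate 1 (nearest 148), Ctla4 289 in replicate 4 (nearest 183), Cd27 77.5 in replicate 1 (nearest 63.7), Irf8 189 in replicate 5 (nearest 151) and Pfkfb3 66.4 in replicate 6 (nearest 55.5). The outlying lowest was Furin 179 (237) in replicate 4. In TfhA_4e4, genes near 0 had their few counts in 1 library: Il10 0.235 in replicate 6 (nearest 0), Aqp3 0.359 in replicate 5 (nearest 0), Gpr15 0.332 in replicate 3 (nearest 0), Cysrt1 0.995 in replicate 3 (nearest 0.199), Peli2 0.995 in replicate 3 (nearest 0.207), Cd86 0.622 in replicate 2 (nearest 0) and Hey1 1.24 in replicate 2 (nearest 0). The other outlying highest values were Il1r2 28.8 in replicate 3 (nearest 24), Cth 29.6 in replicate 2 (nearest 19.9), Ldlrad4 3.98 in replicate 1 (nearest 1.33), H2-D1 83.2 in replicate 1 (nearest 70.7) and Ccnd2 1691 in replicate 6 (nearest 1462). The outlying lowest were Agap1 0.235 in replicate 6 (nearest 0.597), Pdpn 1.04 in replicate 2 (nearest 2.65), Furin 18 in replicate 5 (nearest 25.4) and Ifi27 95.5 in replicate 6 (nearest 111). No library of TfhA_4e4 recurred for more than 4 genes.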

How the results depend on the processing

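The number of genes called was 3270 to 4054 under the alternatives, against 3729, except 2725 with the mitochondrial rRNA share as a covariate, where 1128 genes were higher (1757 without it) and 1597 lower. That share is itself 14.82 against 9.92% in the groups, and the cause of the lower count was not tested. Leaving out 1 library gave 3392 to 3767 calls. RLE and upper-quartile scaling gave 1890 and 2045 higher and 1849 and 1734 lower calls, and DESeq2 gave 1965 and 1920. Genes outside all Tfh2 libraries numbered 1031, 1030 under RLE, 1065 without Tfh2_4e4 replicate 3 and 1109 without Tfh2_2e4 replicate 6 as well, an alternative chosen after seeing the data. With the replicate number as a block 4054 genes were called, Pdcd1, H2-K1, Pkm and Ldha among them (edgeR adjusted p = 0.0113, 0.0404, 0.0153 and 0.00184), Dgkk, Penk, Il1r2, Tnfsf8, Mndal, Slc17a6, Serpinb9 and Ccn4 had folds over 1.5 times larger (log2 fold changes of 4.93 to 6.57), 11 in place of 5 cytosolic ribosomal proteins were lower, and nuclear-encoded respiratory chain subunits were 26 higher and 6 lower (20 and 3 without the block). The labels do not say whether the numbers pair the libraries, and 5 same-numbered pairs are too few to decide it. Of these, 1 correlated above 0.1 in its deviations from the group means (mean 0.051, and -0.010 between other numbers). Of the 5 TfhA_4e4 libraries, 2 correlated best with their own number. Of 4276 values of the 186 named genes over 23 settings, 4236 kept direction and side of the threshold, 6 lost the call, 34 gained one and none reversed. The lost calls are COX1, ND1, Kif15 and Slamf7 with the covariate, Ccl20 in limma-voom and Dgkk in DESeq2. COX1 and ND1 are mitochondrial transcripts, as are the rRNAs that make up the covariate. Leaving out 1 library ended none of the 175 calls. Depth limits genes with few counts, such as Il10 and Aqp3, to bounds, and 3′ counts say nothing of isoforms.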
